A study of Mus musculus with 12 samples.

Results

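Immediate early genes of the Egr, Nr4a and Ier families, together with *Dusp1*, were followed in satellite cells, the Pax7+ stem cells of skeletal muscle. They were chosen by name and were *Egr1*, *Egr2*, *Egr3*, *Nr4a1*, *Nr4a2*, *Nr4a3*, *Ier2*, *Ier3*, *Ier5* and *Dusp1*, which made 10 of the 55401 genes in the count table. All 10 were among the 25771 genes that passed the filter on low counts.

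The study sequenced RNA from ZsGreen+ cells sorted from mouse hind limb muscle and asked what loss of the chemokine receptor CXCR4 changes in them. All mice carried the *Cxcr4* FL/FL alleles and the Pax7-ZsGreen reporter and received tamoxifen at 80 mg/kg on 5 days, followed by tamoxifen diet. *Cxcr4* KO mice also carried Pax7-creERT2, which drives recombination in satellite cells, and WT mice lacked cre. Freshly isolated cells, called quiescent, gave 4 libraries per genotype, and cells kept in culture overnight, called activated, gave 2 per genotype. The mice were adults. The labels give no sex and do not say whether libraries of a group came from separate mice, so a p-value here measures the spread between libraries, which may in part be technical. Cells of both states had been released from minced muscle by enzymatic digestion and sorted before any culture, and KO cells can include some that escaped recombination.

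Immediate early genes are transcribed within minutes of a stimulus, without need for new protein, largely through SRF with its ETS-family partners at serum response elements and through CREB at cAMP response elements. Most of their transcripts are short-lived. EGR1, EGR2 and EGR3 are zinc finger transcription factors that bind GC-rich sites, and the NR4A proteins are orphan nuclear receptors that can bind DNA as monomers. IER2 and IER5 are related nuclear proteins, IER3 is a separate small protein tied to cell survival, and DUSP1 is a phosphatase that switches off MAP kinases. The genes are often read as a sign of recent stimulation of a cell, also in freshly isolated muscle stem cells.

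Motifs of these kinds were looked for in the DNA just upstream of RefSeq starts of the genes. RefSeq promoter windows of GRCm38.p6 covered 7 of the 10 genes, and *Egr1*, *Egr3* and *Ier2* had none that was used here. The 250 bases before the start are given for the NR4A receptors, *Dusp1* and *Egr2*, because these were the windows with a CREB-type or SRF-type motif. They lie at chr15:101266596-101266845 (+) for *Nr4a1*, chr2:57124004-57124253 (-) for *Nr4a2*, chr4:48045055-48045304 (+) for *Nr4a3*, chr17:26508473-26508722 (-) for *Dusp1* and chr10:67537619-67537868 (+) for *Egr2*. The windows of *Nr4a1*, *Dusp1* and *Egr2* lie inside the whole gene spans given below, which hold other starts, and that of *Nr4a3* does so in part. Capitals mark TGACG on either strand (read as CGTCA on the other), TATAAA on either strand, and the CArG box, which is CC, then 6 bases that are A or T, then GG.
Nr4a1: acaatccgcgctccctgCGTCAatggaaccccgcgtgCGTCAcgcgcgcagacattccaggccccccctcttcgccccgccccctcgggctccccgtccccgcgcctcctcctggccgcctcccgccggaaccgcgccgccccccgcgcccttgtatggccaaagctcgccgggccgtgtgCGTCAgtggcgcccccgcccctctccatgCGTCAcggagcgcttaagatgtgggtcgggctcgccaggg
Nr4a2: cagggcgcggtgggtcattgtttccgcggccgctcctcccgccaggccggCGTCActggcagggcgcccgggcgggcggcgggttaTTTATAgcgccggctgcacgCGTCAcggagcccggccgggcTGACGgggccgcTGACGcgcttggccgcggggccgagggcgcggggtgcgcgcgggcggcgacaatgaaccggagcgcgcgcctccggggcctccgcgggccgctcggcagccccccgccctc
Nr4a3: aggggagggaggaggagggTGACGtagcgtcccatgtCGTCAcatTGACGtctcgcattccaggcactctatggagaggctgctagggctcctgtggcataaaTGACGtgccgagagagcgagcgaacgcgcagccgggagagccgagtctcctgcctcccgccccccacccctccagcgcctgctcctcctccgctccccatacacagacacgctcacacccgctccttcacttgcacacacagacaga
Dusp1: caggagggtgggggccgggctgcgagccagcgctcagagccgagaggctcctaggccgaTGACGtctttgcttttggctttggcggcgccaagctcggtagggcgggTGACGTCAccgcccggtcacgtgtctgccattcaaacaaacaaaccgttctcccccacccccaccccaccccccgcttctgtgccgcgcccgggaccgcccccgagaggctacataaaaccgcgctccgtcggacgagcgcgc
Egr2: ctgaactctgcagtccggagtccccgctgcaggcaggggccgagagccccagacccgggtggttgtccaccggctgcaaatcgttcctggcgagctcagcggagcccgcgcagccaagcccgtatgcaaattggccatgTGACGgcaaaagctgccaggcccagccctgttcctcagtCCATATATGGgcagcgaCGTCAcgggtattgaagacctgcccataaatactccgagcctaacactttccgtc
The short CREB-type motif TGACG was in the windows of 5 of the 7 genes, against 17.8% of all 32851 windows of this length. *Nr4a1*, *Nr4a2* and *Nr4a3* each held it 4 times, *Dusp1* 3 times and *Egr2* 2 times. The full palindrome TGACGTCA, which contains TGACG on both strands, was in the *Dusp1* window only among these genes, and 1.55% of all windows held it. A CArG box was in the window of 1 gene, *Egr2*, against 1.47% of all windows. *Egr2* had 5 windows for its several starts, of which 4 held the box. TATAAA was found for *Nr4a2* alone, against 12.4% of all windows. Neither GCGTGGGCG, to which EGR proteins bind, nor AAAGGTCA, to which NR4A monomers bind, was in any of the 7 genes' windows, and these were in 0.536% and 1.34% of all windows. These are matches of letters in a short window and no measure of binding.

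In the genome (GRCm38), *Egr1* lies at chr18:34859823-34864984, *Egr2* at chr10:67535475-67542188 and *Egr3* at chr14:70077203-70082614. *Nr4a1* lies at chr15:101254269-101274795, *Nr4a2* at chr2:57106830-57124003 and *Nr4a3* at chr4:48045153-48086447. *Ier2* and *Ier5* have a single exon each, at chr8:84661331-84662852 and chr1:155096361-155099636, while *Ier3* has 2, at chr17:35821684-35822923. *Dusp1* at chr17:26505590-26562128 was the only one that overlapped other annotated genes, and it shared 11 of its 3311 exon bases with them.

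The quiescent libraries held 12775593 to 23717013 counts and the activated libraries 3172164 to 5427280, so low genes were measured less precisely after culture. *CT010467.1*, an annotated gene with ribosomal RNA sequence, took under 1% of counts in quiescent libraries (at most 0.807%) and 11.5 to 40.3% in activated ones. *Cxcr4* itself stood at 59.1 to 112 CPM (counts scaled to library size with edgeR's TMM factors) in WT and 12.5 to 21.2 CPM in KO quiescent libraries. After culture it was 33.3 and 14.4 CPM in WT and 5.39 and 13.7 CPM in KO, so the lower WT and the higher KO library nearly met. The satellite cell markers were present in every group, with a summed level of 4884 to 8706 CPM in quiescent and 2315 to 3537 CPM in activated libraries. Y-linked genes summed to 358 to 660 CPM in the quiescent and 0 to 2.51 CPM in the activated libraries, while *Xist* reached at most 7.17 CPM in the former and was at 451 to 817 CPM in the latter. State, sex of the cells, depth and ribosomal share therefore cannot be told apart in any comparison of the states.

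Freshly isolated cells held 9 of these transcripts at well-measured levels, with *Egr2* as the exception. Together the 10 genes, of which *Egr1* had the most counts, took 1.44 to 2.01% of all counts in WT and 1.41 to 1.74% in KO quiescent libraries. After culture the share was 0.219% and 0.0662% in WT, and 0.0873% and 0.0744% in KO. With the ribosomal gene left out of the totals the first WT library was again the highest, and the share was 0.111% in the second, and 0.0986% and 0.105% in KO. Every quiescent library thus lay above every activated one, and the first WT activated library lay above the 3 others.

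Per length of exon, *Egr1* led in quiescent cells. Its mean over the WT quiescent libraries was 1951 ± 231 CPM per kilobase (SD, n = 4). *Ier5*, *Nr4a1* and *Ier2* came next, with 564 ± 137, 556 ± 79.2 and 547 ± 23.8 CPM per kilobase, and their ranges overlapped. *Ier3* (433 ± 13.6) and *Dusp1* (429 ± 27.0) overlapped each other, as did *Nr4a2* (114 ± 19.6) and *Nr4a3* (104 ± 16.3) further down. *Egr3* followed at 46.2 ± 5.29 and *Egr2* at 0.226 ± 0.111 CPM per kilobase. In the KO quiescent libraries *Egr1* was again first (1643 ± 170, n = 4), and the 5 genes after it overlapped from each to the next, in the order *Ier5*, *Ier2*, *Ier3*, *Nr4a1* and *Dusp1*. The EGR family therefore spanned the whole range, with *Egr1* the highest and *Egr2* the lowest of the 10 in both genotypes.

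The order changed after culture. *Ier2* was then first, with 183 ± 34.4 CPM per kilobase in WT (SD, n = 2) and 154 ± 8.85 in KO (n = 2), above the range of *Egr1*, which followed with 89.8 ± 37.4 and 47.0 ± 6.41. The FPKM values deposited by the authors, 1 per group, also put *Egr1* first in quiescent cells (1896 in WT and 1597 in KO) and *Ier2* first in activated cells (185 and 151). From *Egr1* down to *Nr4a2*, the WT activated range of each gene overlapped that of the next.

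**Figure D1:**
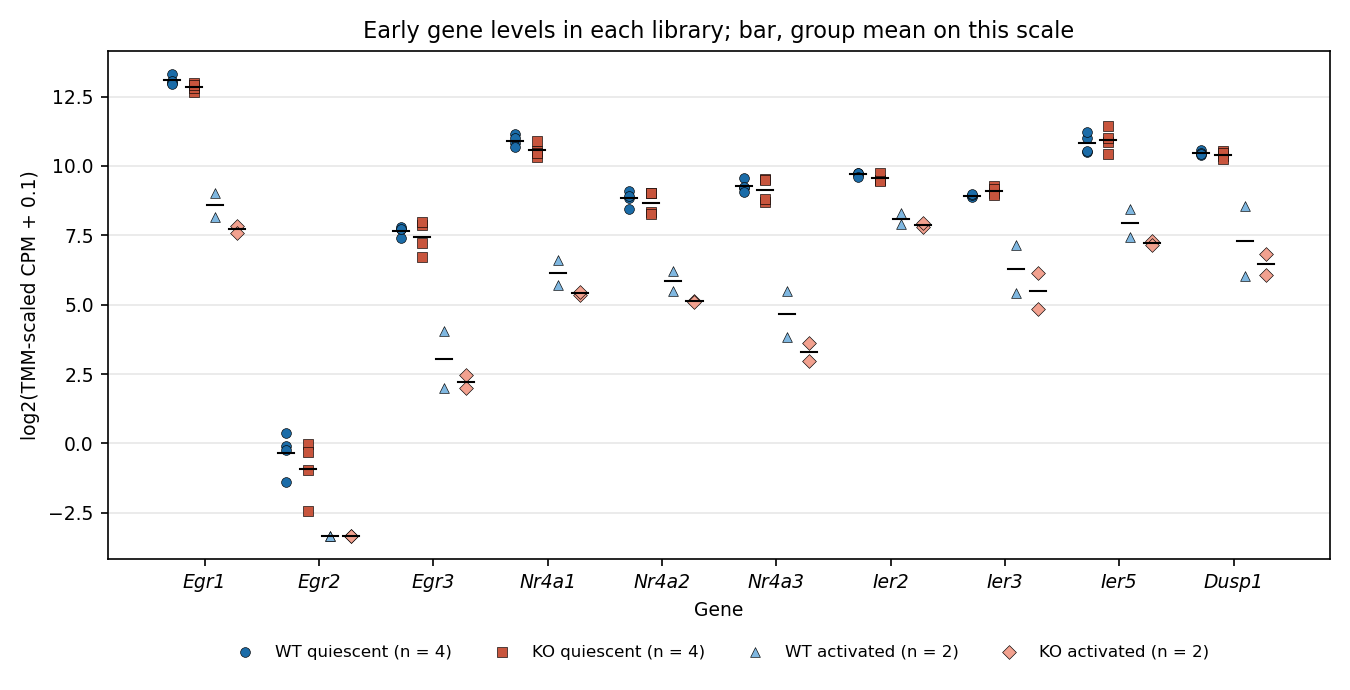
Level of each gene in each of the 12 libraries, as log2 of TMM-scaled CPM plus 0.1, with the gene on the x axis, 1 point per library and a bar at each group's mean on this scale. The activated libraries sit below all quiescent libraries for each gene, and *Egr2* is at 0 counts in all 4 activated libraries.

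In quiescent cells no difference between KO and WT was detectable in these genes. None of the 10 passed the test of KO against WT, for which edgeR's quasi-likelihood test had to give an adjusted p under 0.05, with a log2 fold change beyond 1 either way and a mean count above 10, against 0.0155% of all genes tested. None reached an unadjusted p under 0.05, against 1.74% of all genes. DESeq2 on all libraries also called 0, against 0.0107% of the genes it tested, and none of the 10 had groups that did not overlap, against 1.7% of all genes. The fold change was below 0 for 8 genes and above 0 for *Ier3* and *Ier5*, with a median of -0.14 on the log2 scale over the 10 genes and 0.025 over all genes.

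*Egr1*, the most abundant, stood at 10239, 8148, 8652 and 7963 CPM in the WT libraries numbered 1 to 4. It stood at 6436, 7132, 8228 and 7666 CPM in the KO libraries. The third KO library lay within the WT range and the others below it, and the log2 fold change was -0.25 ± 0.23 (SE; edgeR, adjusted p = 1). *Egr3* was at 212, 170, 223 and 209 CPM in WT and 107, 148, 232 and 254 CPM in KO. Its KO libraries thus fell on both sides of the WT values, and the log2 fold change was -0.14 ± 0.30 (SE; edgeR, adjusted p = 1). *Egr2* was barely detected in any quiescent library, with 4 to 25 counts in WT and 2 to 15 in KO.

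The genes of the NR4A receptors also overlapped between the genotypes. *Nr4a1* had 2287, 1801, 2054 and 1659 CPM in WT and 1290, 1497, 1933 and 1402 CPM in KO, a log2 fold change of -0.35 ± 0.23 (SE; edgeR, adjusted p = 1). *Nr4a2* had 542, 461, 490 and 353 CPM in WT and 328, 305, 516 and 520 CPM in KO, and *Nr4a3* had 764, 584, 607 and 541 CPM in WT and 416, 449, 744 and 717 CPM in KO. For both, the first and second KO libraries were the lowest of all 8, and the other KO libraries lay within the WT range. Their log2 fold changes were -0.15 ± 0.23 and -0.10 ± 0.29 (SE; edgeR, adjusted p = 1 for both).

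The IER genes and *Dusp1* were steadier between libraries, apart from *Ier5*. *Ier3* stayed between 470 and 503 CPM in WT and between 499 and 618 CPM in KO, with a log2 fold change of 0.17 ± 0.29. *Dusp1* stayed between 1336 and 1544 CPM in WT and between 1234 and 1472 CPM in KO (-0.059 ± 0.34), and *Ier2* between 786 and 863 CPM in WT and between 703 and 864 CPM in KO (-0.14 ± 0.19). The groups of all of them overlapped. *Ier5* ran from 1466 to 2366 CPM in WT and from 1382 to 2797 CPM in KO (0.13 ± 0.26), the widest WT range of the 9 genes above 10 CPM when taken as a ratio. Its level split by replicate number, and so did depth. All 4 libraries numbered 1 and 2, with 12775593 to 17532019 counts, had 1382 to 1869 CPM, and all 4 numbered 3 and 4, with 22785815 to 23717013 counts, had 2059 to 2797 CPM. Among those numbered 1 and 2 the level did not rise with depth, as KO 2 with 13075208 counts had 1869 CPM and WT 1 with 17532019 counts had 1466 CPM. Depth and any other difference between the numbers cannot be told apart, and their part was not tested.

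Within these classes of replicate number the comparison of KO with WT was taken again, a choice made after the values were seen. Among the libraries numbered 1 and 2, the KO fold change was -0.43 ± 0.31 for *Egr1*, -0.57 ± 0.40 for *Egr3*, -0.54 ± 0.30 for *Nr4a1*, -0.66 ± 0.26 for *Nr4a2* and -0.63 ± 0.39 for *Nr4a3* (log2, SE, 2 libraries against 2). Among those numbered 3 and 4 it was -0.057 ± 0.33, 0.17 ± 0.37, -0.14 ± 0.32, 0.30 ± 0.28 and 0.35 ± 0.39. So *Egr3*, *Nr4a2* and *Nr4a3* had fold changes below 0 in the first class and above 0 in the second. This restates that their lowest libraries were KO 1 and KO 2. Whether the KO effect differs between the classes was not tested, and classes chosen from these values cannot test it. *Ier2*, *Ier3*, *Ier5* and *Dusp1* kept their sign, with -0.20 ± 0.24, 0.26 ± 0.45, 0.15 ± 0.31 and -0.083 ± 0.53 in the first class and -0.061 ± 0.26, 0.11 ± 0.46, 0.13 ± 0.33 and -0.016 ± 0.55 in the second. *Egr2* had a value in the second class only (-1.30 ± 1.37). None passed the test in either class.

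The spread between quiescent libraries was moderate. The coefficient of variation of the 9 genes other than *Egr2* had a median of 11.8% in WT, from 3.14% for *Ier3* to 24.3% for *Ier5*. Over the 6838 genes with an average log2 CPM over 4 it was 17.3%. In KO the median of the 9 genes was 18.4%, from 8.04% for *Dusp1* to 37.4% for *Egr3*, beside 21.3% over those 6838. That limit is a floor, and the 6838 genes were not matched in level to the 9. With group means taken out, *Egr1*, *Nr4a3*, *Nr4a1*, *Nr4a2*, *Egr3* and *Ier2* followed the mean pattern of the 10 genes over the 8 quiescent libraries, with r from 0.74 to 0.92. *Ier5*, *Dusp1* and *Ier3* did so with r of 0.28, 0.18 and -0.04. Each gene is part of the mean it is set against and the points share their libraries and scaling, so this is a description. *Egr2*, with 2 to 25 counts in a library, had r of -0.32. So *Egr1*, *Egr3*, the NR4A genes and *Ier2* varied together, and the 4 others followed that pattern less or not at all.

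**Figure D2:**
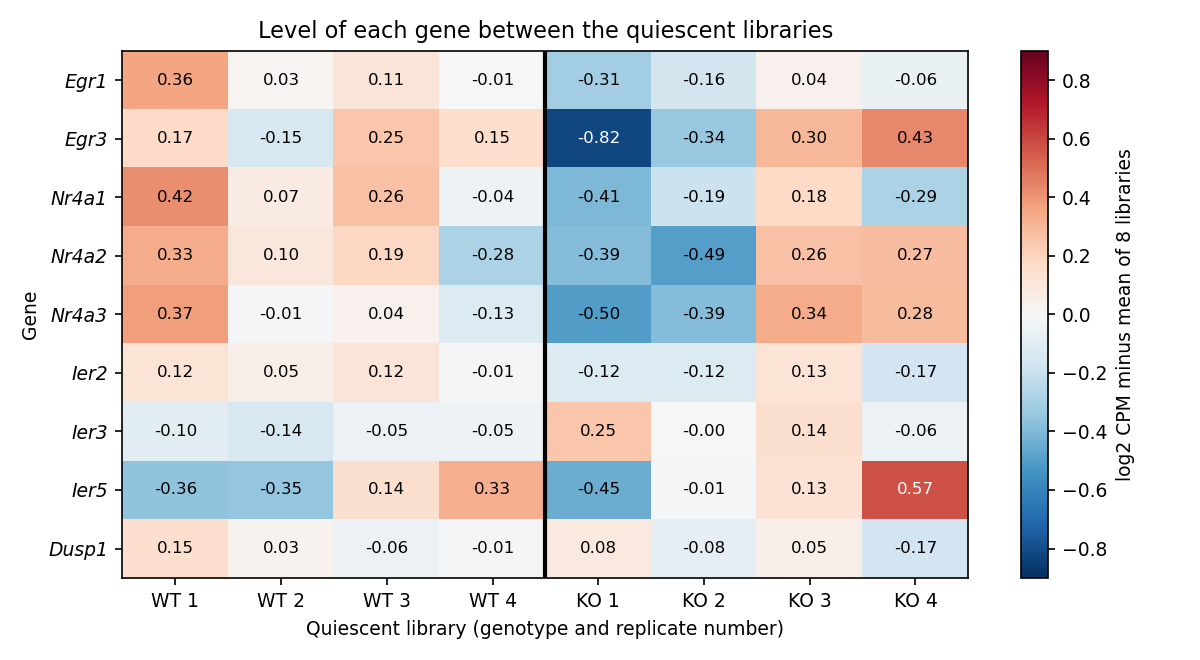
Heat map of the 8 quiescent libraries (columns, genotype and replicate number) and 9 genes (rows), each cell giving log2 CPM minus the gene's mean over the 8 libraries, red above and blue below. The rows of *Egr1*, *Egr3* and the Nr4a genes are blue in KO 1 and KO 2, the deepest being *Egr3* in KO 1 at -0.82, whereas *Ier5* runs from -0.45 to 0.57.

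Overnight culture went with a large fall of 9 of these genes in both genotypes. In WT, 9 of the 10 genes passed the test as lower in activated than in quiescent libraries, against 16.5% of all genes. In KO, 9 of 10 passed as lower, against 18.5%. *Egr2* was the one not called in either, with a mean count under 10 and adjusted p-values (edgeR) of 0.0897 and 0.111. For all 10 genes no activated library reached the lowest quiescent library of its genotype, which held for 38.4% of all genes in WT and 36.1% in KO. For *Egr2*, at 0 counts in the shallower activated libraries, such a gap cannot be told apart from depth. The median log2 fold change of the 9 called genes was -2.93 in WT and -3.91 in KO, beside -0.92 and -0.96 over all genes, and with *Egr2* at its bound the medians of the 10 were -2.88 and -3.83. In these bulk samples, fewer cells with a transcript and less of it per cell cannot be told apart. All levels are relative to the other counts of a library, so an absolute fall was not measured.

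*Egr1* fell from the levels above to 521 and 284 CPM in WT after culture, and to 231 and 190 CPM in KO. This made a log2 fold change of -4.44 ± 0.37 in WT (SE; edgeR, adjusted p = 5.91e-08), or 21.7-fold lower. In KO it was -5.13 ± 0.38 (SE; edgeR, adjusted p = 2.08e-08). *Egr3* fell to 16.3 and 3.94 CPM in WT and to 5.39 and 3.88 CPM in KO, which made -4.22 ± 0.47 and -5.32 ± 0.52. *Egr2* had 62 counts over the WT and 38 over the KO quiescent libraries and 0 in each of the activated ones. With 3 counts over the group as the floor and the pooled quiescent counts taken as exact, it was at least 2.26-fold lower in WT and 1.33-fold lower in KO. At this depth a greater fall could not be seen. The floors, 0.357 CPM in WT and 0.362 CPM in KO, lay above the lowest quiescent library of each genotype (0.284 and 0.0831 CPM).

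Among the NR4A receptors, *Nr4a1* fell to 97.7 and 52.1 CPM in WT, the largest fall of the 9 genes there (-4.69 ± 0.36; edgeR, adjusted p = 4.12e-08), and to 40.6 and 44.3 CPM in KO (-5.17 ± 0.38). *Nr4a3* had 45.1 and 14.0 CPM in WT (-4.36 ± 0.45) and 12.3 and 7.76 CPM in KO, where its fall was the largest of the 9 genes, at -5.86 ± 0.50 (SE; edgeR, adjusted p = 6.67e-08). *Nr4a2* fell less, to 74.7 and 45.5 CPM in WT (-2.93 ± 0.34) and to 35.4 and 34.4 CPM in KO (-3.58 ± 0.35). All 3 receptors were thus lower in each cultured library than in any fresh one.

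In WT the IER genes and *Dusp1* had smaller fold changes than the EGR and NR4A genes called, whereas in KO *Nr4a2* lay among them, and these gaps between genes were not tested. *Ier2* changed least, to 315 and 241 CPM in WT and 226 and 245 CPM in KO, with log2 fold changes of -1.58 ± 0.25 and -1.69 ± 0.25. *Ier5*, an inducer of stress-response gene expression, fell by 2.83 on the log2 scale in WT and by 3.75 in KO, to 346 and 172 CPM and to 159 and 143 CPM. *Ier3* fell by 2.39 and 3.48, to 142 and 42.5 CPM in WT and 28.8 and 70.3 CPM in KO. *Dusp1* fell by 2.66 and 3.91, to 380 and 65.2 CPM in WT and 67.0 and 114 CPM in KO. The highest adjusted p of the 9 genes (edgeR) was 2.58e-04 in WT and 3.75e-05 in KO.

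**Figure D3:**
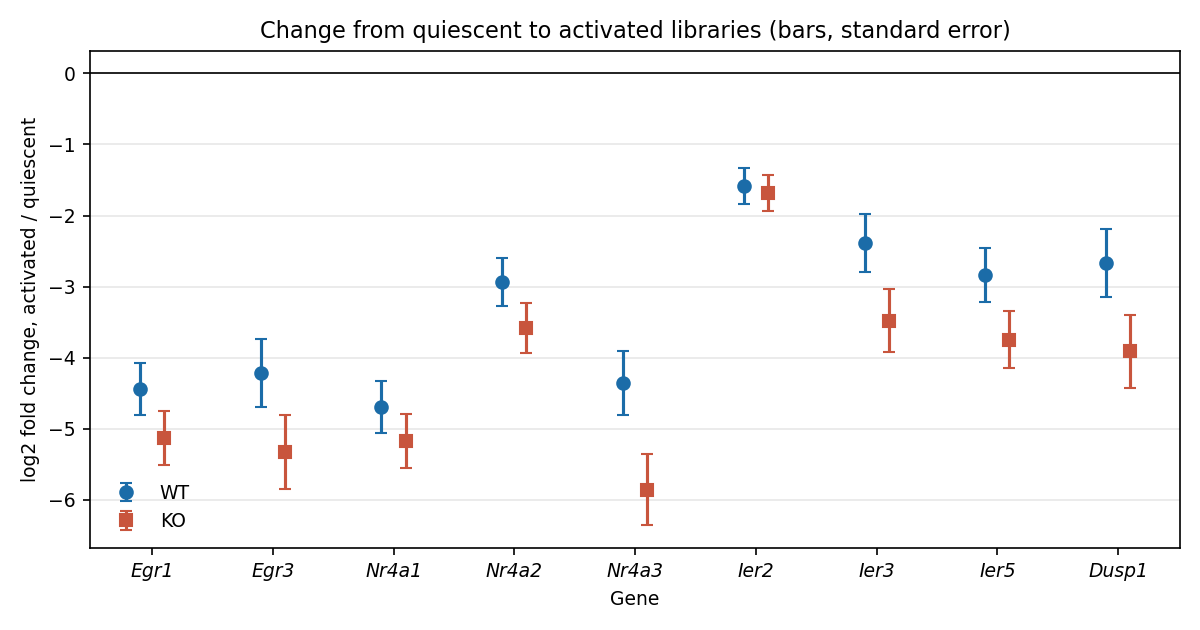
log2 fold change from quiescent to activated libraries for the 9 genes with counts in both states (x axis), in WT (circles) and KO (squares), with bars of 1 standard error. The values run from -1.58 for *Ier2* in WT to -5.86 for *Nr4a3* in KO, and *Ier2* lies nearest 0 in both genotypes.

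Transcripts listed as markers of neighbouring cell types also moved between the states. The 7 mural cell markers summed to 1464 to 2696 CPM in quiescent and 188 to 404 CPM in activated libraries, and the 8 fibroadipogenic progenitor markers to 348 to 3267 and 280 to 746 CPM. The 8 mature fibre markers went the other way, from 300 to 1025 CPM up to 7283 to 17429 CPM. The 8 endothelial markers summed to 272 to 1215 CPM and 106 to 735 CPM, and the 8 hematopoietic markers to 87.8 to 370 CPM and 40.7 to 67.1 CPM. A sum need not hold for each marker. Of the fibroadipogenic progenitor markers, 3 were called lower and 0 higher in WT, and 3 lower and 1 higher in KO (edgeR). Their median log2 fold change was -0.66 in WT and -0.55 in KO, beside -0.92 and -0.96 over all genes. The endothelial median was -0.94 and -1.64, and the mural median -2.14 and -2.47. Their part in the fall of the early genes was not tested.

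The fall was not peculiar to these 10 genes. Of 31 other immediate early genes, 30 were tested, and *Jund* was listed at 0 counts in all libraries. In WT, 24 were called lower and 1, *Ptgs2*, higher, with a median log2 fold change of -2.28, and in KO 27 were called lower and 0 higher (median -2.60). *Fos* and *Fosb*, which encode AP-1 subunits, had the smallest adjusted p-values, with log2 fold changes of -6.27 ± 0.49 and -6.57 ± 0.54 in WT and -7.41 ± 0.53 and -7.60 ± 0.57 in KO. *Sik1* (-3.65) and *Klf4* (-4.01) came next in WT, and *Trib1* (-5.22) and *Zfp36* (-6.15) in KO.

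The relatives listed did not follow as a group, and most of them were Dusp genes. Of the 11, with *Egr4* and *Ier5l* the only ones outside the Dusp family, 3 were called higher and 3 lower in WT. In KO, 1 was called higher and 5 lower. Of all genes, 16.5% were called lower in WT and 18.5% in KO, and the share called higher is not given here. *Egr4*, the remaining EGR family member, was higher in WT activated cells, at a mean of 19.4 CPM against 1.46 CPM (log2 fold change 3.73 ± 0.58; edgeR, adjusted p = 5.99e-05). Its mean in KO activated cells was 2.52 CPM. The phosphatase gene *Dusp7* rose in both genotypes (1.80 ± 0.30 and 1.21 ± 0.31), and *Dusp16* fell in both (-1.65 ± 0.31 and -1.81 ± 0.31).

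Regulators and targets of the 10 genes gave calls in both directions. Of 10 partners and corepressors, 0 were called in WT by edgeR, with 4 at an unadjusted p under 0.05, and 0 by DESeq2. In KO *Rxrg*, a nuclear receptor that pairs with NR4A proteins, was called higher (2.79 ± 0.93), from a low mean of 1.17 CPM in quiescent libraries. *Nab2*, a corepressor of EGR proteins, was called lower in KO (-1.16 ± 0.27). Of 19 upstream factors and kinases, 7 were called lower and 2 higher in WT, and 5 lower and 1 higher in KO. *Srf* was lower in both (-1.36 ± 0.29 and -1.38 ± 0.29), as was *Crem*, itself a cAMP-responsive gene (-2.68 ± 0.30 and -3.44 ± 0.31), and *Rps6ka3*, which encodes the kinase RSK2 (-2.68 ± 0.33 and -2.48 ± 0.32). Of 10 known EGR targets, *Pdgfa*, a growth factor gene, was called higher in both genotypes (2.81 ± 0.27 and 2.90 ± 0.27), *Cdkn1a* lower in WT (-1.08 ± 0.28), and 5 lower in KO.

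After culture all 9 detected genes had a lower fitted level in KO than in WT, but none passed the test, against 0.0504% of all genes. The median log2 fold change was -0.91, beside 0 over all genes. An unadjusted p under 0.05 was reached by 7 of the 9 (edgeR), against 8.37% of all genes, and both KO libraries lay below both WT libraries for 5 (*Egr1*, *Nr4a1*, *Nr4a2*, *Nr4a3* and *Ier5*), against 9.5% of all genes. With 2 libraries a side, the count of genes called depended on the method. DESeq2 on all 12 libraries called 1 (*Nr4a3*), against 0.914% of all genes it tested, and edgeR with the filter called 0. With no filter on low counts edgeR called 2 (*Nr4a3* and *Dusp1*), and the share of all genes called there is not given here.

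*Nr4a3* had the largest difference, with 45.1 and 14.0 CPM in WT against 12.3 and 7.76 CPM in KO, a log2 fold change of -1.60 ± 0.45 (SE; edgeR, adjusted p = 0.244). Its WT libraries differed 3.22-fold from each other, and the lower of them lay just above the higher KO library. *Dusp1* had 380 and 65.2 CPM in WT against 67.0 and 114 CPM in KO (-1.30 ± 0.49; edgeR, adjusted p = 0.447). Here the second WT library lay below both KO libraries. *Egr3* (-1.25 ± 0.52), *Egr1* (-0.94 ± 0.34), *Ier3* (-0.91 ± 0.43), *Nr4a1* (-0.83 ± 0.33), *Nr4a2* (-0.79 ± 0.34) and *Ier5* (-0.78 ± 0.38) lay between, with adjusted p-values (edgeR) of 0.415 to 0.601, and *Ier2* differed least (-0.24 ± 0.27).

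The libraries did not weigh equally in this. The first WT activated library had the highest level of the 4 activated libraries in all 9 genes. It exceeded the second WT library 1.31-fold (*Ier2*) to 5.82-fold (*Dusp1*), and more than 2-fold in 5 genes, a gap found in 9.11% of 6838 genes. The median of the log2 ratio was 1.01 over the 9 genes and 0.11 over all. It was also the deepest of the 4, with 5427280 counts against 3172164 in the second WT library, and 12.6% of its counts were ribosomal against 40.3%. The second WT library lay above both KO libraries in 5 genes, between them in 3 and below both in 1.

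Without the first WT activated library, the KO log2 fold change was 0.13 for *Egr3*, 0.12 for *Ier3* and 0.37 for *Dusp1*, and between -0.58 (*Nr4a3*) and -0.13 (*Ier2*) for the 6 others, and no gene was called. Without the second, it was -2.24 for *Nr4a3* (edgeR, adjusted p = 0.00928) and -2.15 for *Dusp1* (adjusted p = 0.00349), and both were called. A fit with 1 library on a side assumes that this library varies like the other groups, and the share of all genes called in it is not given here. Between the libraries with the lower ribosomal RNA share, KO 1 and WT 1, all 9 genes were lower in KO, with a median log2 ratio (CPM plus 1) of -1.25. Between those with the higher share, KO 2 and WT 2, 6 of 9 were lower, with a median of -0.23.

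**Figure D4:**
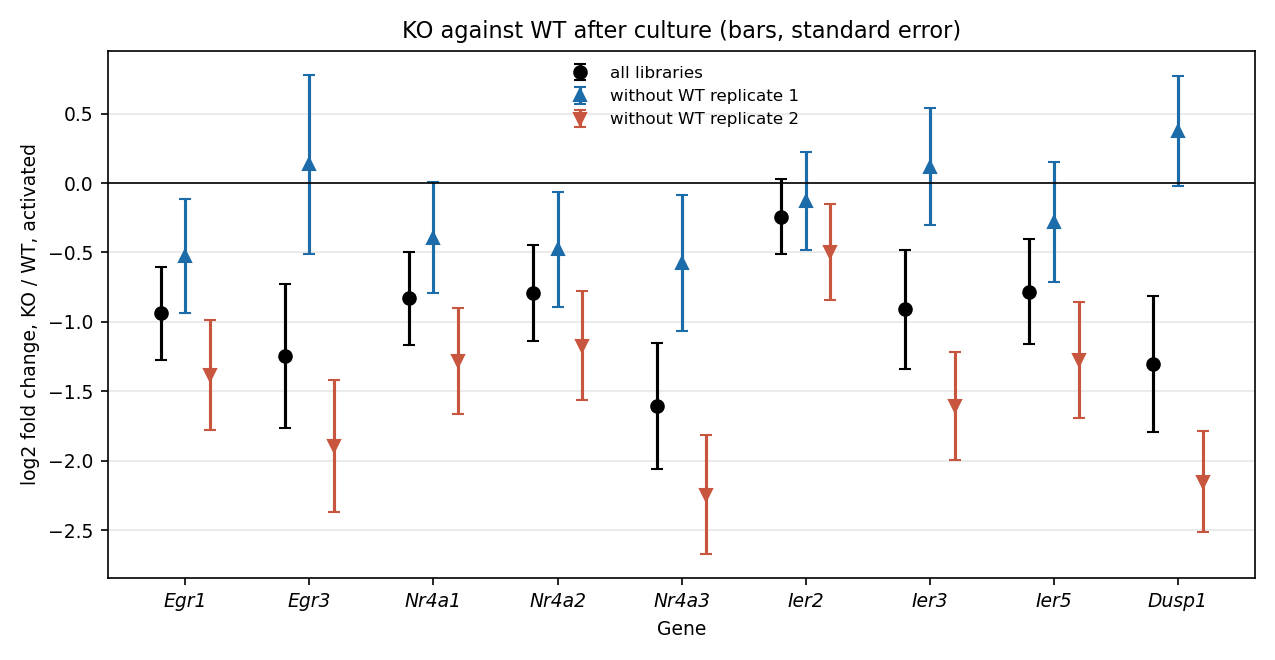
log2 fold change of KO against WT in activated libraries for 9 genes (x axis), from all libraries (black circles), without WT replicate 1 (triangles up) and without WT replicate 2 (triangles down), with bars of 1 standard error. All 9 values from all libraries lie below 0, and without WT replicate 1 those of *Egr3*, *Ier3* and *Dusp1* lie above 0.

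Marker transcripts moved with that library too. The 8 endothelial markers summed to 735 CPM in the first WT activated library, against 106 in the second and 111 and 369 in KO. The 8 fibroadipogenic progenitor markers summed to 746 CPM there, against 280, 351 and 583, and the 7 mural markers to 404, against 247, 188 and 280. The 8 mature fibre markers were lowest in it, at 7283 CPM, against 16064, 9638 and 17429. No endothelial, fibroadipogenic progenitor, mural or fibre marker was at 0 in any activated library. The hematopoietic markers did not stand out (40.7 CPM, against 44.2 to 67.1 in the others, with 1 marker at 0). A sum need not hold for each marker. In activated cells 7 of the 8 fibroadipogenic progenitor markers had a KO fold change above 0 and 1 below (edgeR, median log2 0.67, 0 called). For the endothelial markers 1 was above and 7 below, and for the mural markers 1 above and 6 below. The part of these cells in the early gene levels was not tested.

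Other early genes and kin also had fold changes mostly below 0 there, and the calls depended on the method. Of 30 other immediate early genes, 28 had a KO fold change below 0 in activated cells (median -0.65 by edgeR), and 13 had an unadjusted p under 0.05. None was called by edgeR, but DESeq2 on all 12 libraries, a comparison of these lists added after their values were seen, called 7 lower, with the smallest adjusted p for *Ptgs2*, *Gadd45b*, *Csrnp1* and *Fos*, against 0.914% of all genes it tested. *Egr4* was not called by edgeR (-2.94 ± 0.76; adjusted p = 0.193) and was called by DESeq2 (-2.99 ± 0.76; adjusted p = 0.0185). The study also listed *Egr4* as lower in activated KO cells. Without the first WT activated library, 20 of the 30 were below 0, with a median of -0.13 by edgeR. *Egr4* was then at -2.65 by edgeR and -2.67 by DESeq2. Without the second, 28 of the 30 were below 0, with a median of -1.16 by edgeR, and *Egr4* was at -3.31. Each of these fits left 1 WT activated library, so they give sizes only. In quiescent cells 23 of the 30 were below 0, with 0 called by edgeR, 0 by DESeq2 and 0 at an unadjusted p under 0.05.

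Whether the KO effect differed between the states was tested directly. The difference, activated minus quiescent, was below 0 for all 9 genes, from -1.50 ± 0.53 for *Nr4a3* to -0.10 ± 0.33 for *Ier2*. None passed, as none of all 25771 genes did (0%), and the smallest adjusted p (edgeR) of the 9 was 0.593. An unadjusted p under 0.05 was reached by *Nr4a3*, *Ier3* and *Dusp1*, against 6.59% of all genes. Without the second WT activated library *Dusp1* was called (-2.09; edgeR, adjusted p = 0.0329), and without the first it was 0.44. The falls of WT and KO upon culture, side by side above, use the same libraries as this difference.

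Genes outside the group whose level rose and fell with it were sought over the 12 libraries, with group means taken out and an average log2 CPM over 4. The 8 most alike were *Svep1* and *Kdm6b* (r of 0.97 each), *Bicdl2* (0.96), *Per1* and *AW011738* (0.95 each), and *Atp6v0a1*, *Pde4b* and *Slc22a17* (0.94 each). *Kdm6b* encodes a histone H3K27 demethylase, *Per1* a clock protein that is itself quickly induced, and *Pde4b* a cAMP phosphodiesterase. The median r was 0.78 over 29 other immediate early genes and 0.16 over all genes. The gap between the WT activated libraries weighs most in this measure. Over the quiescent libraries alone, none of these 8 was among the 8 most alike.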

How the data were processed

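RNA-seq counts of 12 libraries were analysed. Per the labels and the study's methods, the authors trimmed reads with Trim Galore 0.6.0, mapped them to GRCm38.p6 with STAR 2.7.2a and counted them on GENCODE genes, and they tested them with DESeq2 1.34.0. The deposited counts are raw: whole reads for each gene, not normalised. The deposited FPKM values are 1 per group, and the source of their lengths is not given in the sources used here. Strand and multi-mapped reads are not described, so overlapping or duplicated genes are uncertain.

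Genes were filtered with filterByExpr and scaled by TMM. A model with 4 group means was fitted to all libraries by edgeR 4.0.16 (R 4.3.3), tested by the quasi-likelihood test with Benjamini-Hochberg adjustment over 25771 genes. A call needed an adjusted p under 0.05, a log2 fold change beyond 1 in size and a mean normalised count above 10. Log2 CPM used a prior count of 2, and the standard error came from the fold change and its F. CPM per kilobase used merged exons of a GENCODE release on GRCm38 that is older than the authors'. The script was tested on simulated data.

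The members and gene lists were chosen with earlier results of these data known. The text names the 10 members, at most 4 called genes per list and contrast by adjusted p, the 8 genes most alike, *Cxcr4* and marker lists. *Egr4*, *Ptgs2*, *Dusp7*, *Dusp16*, *Srf*, *Jund* and the KO values of *Egr4* include names chosen after their values were seen. The contrasts of the states share libraries with those of the genotypes. Alternatives were DESeq2's size factors in edgeR, TMM without the ribosomal gene, other filters, the adjusted p alone, DESeq2 1.42.0, the compared groups only, a block for the replicate number, and dropping each library in turn. The labels do not say whether replicate numbers pair the libraries, and the main fit took no pairing. No replicates agreed within sampling noise.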

Additional observations from a re-analysis of the deposited data

Results flagged for a closer look

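In KO quiescent cells, *Ier2* stood at 864 CPM in the third library and at 703 to 729 CPM in the 3 others. This library was set apart by a gap to its nearest neighbour that exceeded Dixon's critical value for 4 samples. In WT quiescent cells, *Ier2* ranged from 786 to 863 CPM. Of 20 gene and group combinations examined this was the only 1 that stood out so, and chance gives such a gap in about 1 of 20 groups.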

How the results depend on the processing

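The counts of genes called lower after culture (9 in WT and 9 in KO) held under every alternative that was run. In activated cells the count for KO against WT was 0, but 2 with no filter on low counts and 1 with DESeq2 on all 12 libraries. Leaving out 1 library gave 0 to 2 genes there, 0 to 1 for the difference of the KO effects, and 0 in quiescent cells. Log2 fold changes that turned when 1 library was left out ranged, for KO against WT in quiescent cells, from -0.33 to 0.051 for *Egr3*, -0.24 to 0.026 for *Nr4a3* and -0.060 to 0.28 for *Ier5*. In activated cells they ranged from -1.90 to 0.13 for *Egr3*, -1.75 to 0.12 for *Ier3* and -2.15 to 0.37 for *Dusp1*, and in the difference from -1.76 to 0.27 for *Egr3*, -0.36 to 0.0097 for *Ier2* and -2.09 to 0.44 for *Dusp1*, each highest without WT activated 1. With quiescent libraries 3 and 4 only, a choice made after seeing the data, they were 0.17 for *Egr3*, 0.30 for *Nr4a2* and 0.35 for *Nr4a3*. The cause was not tested. A replicate block changed no call among the 10 genes, with 9 still lower in WT and 9 in KO, while the calls among all genes moved from 13 to 23 for KO against WT in activated cells and from 0 to 6 for the difference. Correlations of same-numbered libraries ran from -0.479 to 0.735, and 4 of 8 quiescent libraries correlated best with their own number. Other scalings moved the median of all genes by at most 0.057. Depth limits *Egr2* and *Egr3*, with 0 and 9 to 100 counts in activated libraries.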
